A study of Homo sapiens with 6 samples.

Results

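The genes described here are E2F1, E2F2, CCNE1, CCNE2, CDC6, CDT1, ORC1, ORC6, CHAF1A and CHAF1B, 10 of the 12010 named genes in the data, chosen by name as regulators of the G1/S transition, origin licensing factors and S-phase chromatin assembly factors. They were measured by RNA sequencing in 92.1, an established human uveal melanoma cell line, a tumour line of pigment cells of the eye. In the LBH589 group, 3 samples were exposed to 0.1 µM LBH589 (panobinostat, a histone deacetylase inhibitor) for 24 h, and in the DMSO group, 3 samples were exposed to the solvent for the same 24 h. No genetic change separates the groups, a single line was used, and the labels name no separate cultures, and each p-value therefore reflects the variation among these 6 libraries alone, some or all of which could be technical. The comparison asked how transcript levels differ after 24 h of histone deacetylase inhibition.

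Entry into S phase is switched on by the E2F transcription factors, which are held in check by the retinoblastoma protein until cyclin-dependent kinases phosphorylate it. E2F1 and E2F2 activate genes for cyclin E, for licensing factors and for replication enzymes, and cyclin E with CDK2 phosphorylates the retinoblastoma protein further, which makes a positive feedback loop. Before S phase the origin recognition complex, CDC6 and CDT1 load the MCM helicase onto origins, and during S phase chromatin assembly factor 1 places new histones behind the replication fork.

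Levels are given in FPKM (fragments per kilobase, relative to the size of the library), summed over the listed transcripts of a gene. Summed FPKM per library was 355148 to 367222 in LBH589 and 397174 to 422630 in DMSO, and absolute depth is unknown because the files hold no counts. Mitochondrial genes held 35.1 to 37.3% of FPKM in LBH589 and 35.8 to 45.7% in DMSO. Of 8 melanocyte lineage markers, 8 were listed, with a summed level of 720.9 to 775.8 FPKM in LBH589 and 2531 to 2672 FPKM in DMSO. Most of that sum was TYRP1, with means of 499.6 FPKM in LBH589 and 1796 FPKM in DMSO. The markers did not move alike. MITF, MLANA, TYR, TYRP1, DCT and SOX10 fell, SOX10 to 0.688 FPKM in LBH589 against 69.4 FPKM in DMSO. PMEL (200 FPKM in LBH589, 274 FPKM in DMSO) and S100B (2.14 and 1.24 FPKM) were not called. The endothelial markers PECAM1, CDH5, VWF and KDR were not listed, nor were the immune markers PTPRC, CD3E, CD14 and LYZ. Summed levels were 4.56 to 6.25 FPKM in LBH589 and 1.97 to 2.995 FPKM in DMSO for 3 listed of 5 fibroblast markers. For 3 listed of 5 epithelial markers they were 8.92 to 11.8 FPKM in LBH589 and 5.52 to 8.57 FPKM in DMSO, and the immune marker CD68 was at 6.69 to 12.4 FPKM in LBH589 and 11.6 to 16.8 FPKM in DMSO. The part of these markers in the results below was not tested.

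Of the 10 genes, 9 were lower in LBH589 than in DMSO and 0 were higher, at an adjusted p below 0.05 in limma over 11520 genes. CCNE2 was the exception, at 6.63 ± 0.501 FPKM in LBH589 and 8.07 ± 0.953 FPKM in DMSO (SD, n = 3 each). The falls ranged from CHAF1A, whose mean in LBH589 was 7.05% of that in DMSO, to CCNE1, whose mean was 58.9% of that in DMSO. Over all genes tested, 21.6% fell and 27.2% rose, 48.8% in all. The median log2 fold change, the difference of mean log2(FPKM + 1) between LBH589 and DMSO, was -1.44 over the 10 genes and 0.08 over all genes tested. In 9 of the 10 genes every LBH589 library lay below every DMSO library, which was the case in 26.5% of all genes tested, while 33% of genes had every LBH589 library above every DMSO library. A log2 fold change of -1 or below with a call was seen in 8 of the 10 genes and in 10.7% of all genes tested. The counts for the 10 genes include E2F1, E2F2, CDT1 and ORC1, with means below 0.5 FPKM in LBH589. Every listed transcript had a mean of at least 0.5 FPKM in a group. These 4 genes were thus listed through DMSO, and a lower mean in LBH589 was their only possible direction. The other genes that fell, CCNE1, CDC6, ORC6, CHAF1A and CHAF1B, had means above 0.5 FPKM in both groups. Their sums, but for CHAF1B, still include transcripts with means below 0.5 FPKM in LBH589, which could only be lower there. These were at 0.394 FPKM in LBH589 and 2.07 FPKM in DMSO in CCNE1, 0.154 and 1.35 FPKM in ORC6, and 0.0267 and 1.51 FPKM in CDC6. In CHAF1A, all transcripts but the main one were at 0 in LBH589. Another CDC6 transcript (0.539 and 0.17 FPKM) was listed through LBH589. These are bulk samples, in which fewer cells in S phase and less RNA per cell cannot be told apart.

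**Figure D1:**
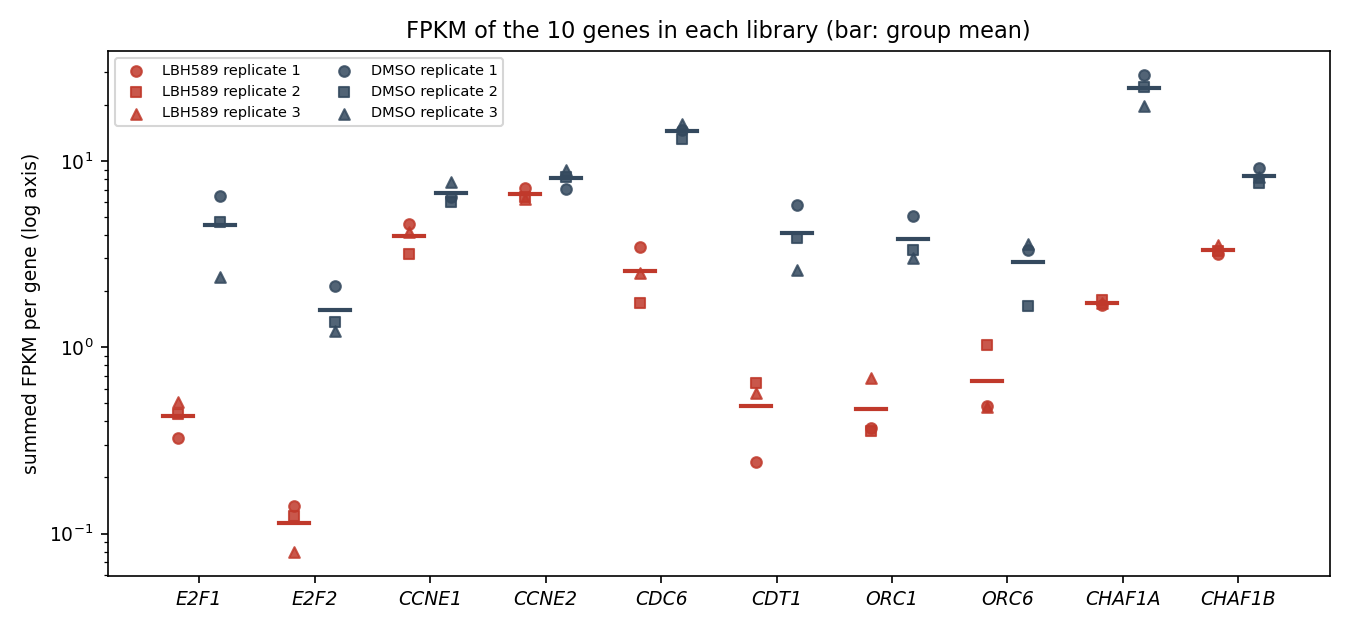
Summed FPKM (log axis) of the 10 genes in the 3 LBH589 and 3 DMSO libraries, with 1 point per library and a bar at each group mean. The groups lie apart in every gene but CCNE2, whose LBH589 replicate 1 (7.198 FPKM) lies above DMSO replicate 1 (7.04 FPKM).

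The windows of 250 bases before the annotated start are shown for 6 of the genes that fell, because 5 of them hold letters of the E2F site close to the start and CHAF1B, partner of CHAF1A, holds none. The windows of CCNE1, CDC6 and ORC6, which also fell, had no match either and are not shown. The sequences are from RefSeq on build GRCh38.p14, in which 9 of the 10 genes were matched, all but CCNE2. Capitals mark the letters TTGGCGC or TTCCCGC on either strand, which are parts of the E2F site, and each window ends with the base before the start. The window of E2F1 is chr20:33686386-33686635 on the minus strand, that of E2F2 chr1:23531234-23531483 on the minus strand and that of ORC1 chr1:52404424-52404673 on the minus strand. The window of CDT1 is chr16:88803539-88803788 on the plus strand, that of CHAF1A chr19:4402390-4402639 on the plus strand and that of CHAF1B chr21:36385142-36385391 on the plus strand.
E2F1: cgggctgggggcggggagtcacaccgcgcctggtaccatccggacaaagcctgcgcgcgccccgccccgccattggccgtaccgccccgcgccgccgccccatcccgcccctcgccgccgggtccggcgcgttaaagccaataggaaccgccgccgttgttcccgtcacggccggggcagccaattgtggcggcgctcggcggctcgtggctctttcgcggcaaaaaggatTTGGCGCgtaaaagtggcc
E2F2: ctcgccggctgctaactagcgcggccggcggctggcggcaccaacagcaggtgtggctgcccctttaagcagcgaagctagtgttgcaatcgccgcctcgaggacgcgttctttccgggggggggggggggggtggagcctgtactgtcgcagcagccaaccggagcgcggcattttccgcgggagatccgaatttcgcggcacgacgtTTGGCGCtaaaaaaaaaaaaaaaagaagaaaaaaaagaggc
CDT1: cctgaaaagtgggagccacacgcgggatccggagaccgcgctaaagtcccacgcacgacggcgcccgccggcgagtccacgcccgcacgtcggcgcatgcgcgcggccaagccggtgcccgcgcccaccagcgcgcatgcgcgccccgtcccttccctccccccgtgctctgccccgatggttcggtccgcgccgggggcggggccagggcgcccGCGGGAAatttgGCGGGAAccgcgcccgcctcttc
ORC1: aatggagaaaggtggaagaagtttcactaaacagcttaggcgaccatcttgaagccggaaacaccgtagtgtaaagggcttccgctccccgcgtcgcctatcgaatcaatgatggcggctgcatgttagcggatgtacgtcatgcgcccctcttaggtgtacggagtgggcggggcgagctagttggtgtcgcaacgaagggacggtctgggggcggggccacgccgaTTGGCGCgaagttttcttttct
CHAF1A: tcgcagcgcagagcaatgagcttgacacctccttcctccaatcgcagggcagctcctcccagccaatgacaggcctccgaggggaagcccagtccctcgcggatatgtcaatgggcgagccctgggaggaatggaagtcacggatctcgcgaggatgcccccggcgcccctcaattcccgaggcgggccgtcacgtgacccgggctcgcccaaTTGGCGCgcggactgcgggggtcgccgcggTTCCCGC
CHAF1B: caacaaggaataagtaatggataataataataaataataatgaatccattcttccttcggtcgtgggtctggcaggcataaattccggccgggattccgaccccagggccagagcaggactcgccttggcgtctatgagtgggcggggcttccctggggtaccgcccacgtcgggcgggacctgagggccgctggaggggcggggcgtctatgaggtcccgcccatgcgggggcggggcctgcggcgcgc

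The E2F letters begin 19 bases before the start in E2F1, 41 in E2F2 and 22 in ORC1. CHAF1A holds them at 37 and 7 bases, and CDT1 holds them on the other strand, at 35 and 23 bases. These letters were in 5 of the 9 matched windows, against 7.8% of all 34943 windows and 11.9% of 13430 windows of tested genes. In those totals a gene with several annotated starts has several windows, while 1 window was taken for each of the 9 genes. The letters CCAAT, known from the NF-Y site, were in 5 of the 9 windows on either strand (E2F1, CDC6, ORC1, ORC6 and CHAF1A), against 32% of all windows and 33.4% of those of tested genes. In ORC1, 1 of these matches overlaps the E2F letters, and in CHAF1A 2 do. TTTGAA, the core of the CHR element of mitotic genes, was in 0 of the 9 windows, against 13.4% of all windows and 9.12% of those of tested genes. A match is a description of the sequence and does not show that a factor binds there. Only the exact letters were searched, so a window without a match can still hold a variant of a site.

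The E2F activators were among the lowest of the 10 genes in LBH589. E2F1, the activator that also has a role in apoptosis, was at 0.327, 0.439 and 0.5095 FPKM in LBH589 replicates 1 to 3, against 6.48, 4.71 and 2.37 FPKM in DMSO replicates 1 to 3. The groups lay well apart, with the lowest DMSO value 4.66 times the highest LBH589 value, although the DMSO libraries themselves spread widely. E2F1 fell with a log2 fold change of -1.88 (SE 0.30, limma adjusted p = 0.003). E2F2, a second activator, was at 0.14, 0.124 and 0.0798 FPKM in LBH589, against 2.14, 1.37 and 1.23 FPKM in DMSO. The lowest DMSO value was 8.74 times the highest LBH589 value, and E2F2 fell with a log2 fold change of -1.19 (SE 0.16, limma adjusted p = 0.00152). At levels this low the added 1 FPKM compresses the scale. With 0.1 FPKM added instead, the log2 fold changes of E2F1 and E2F2 were -3.04 and -2.94. With nothing added, the group means of E2F1 and E2F2 were 10.6-fold and 13.8-fold lower in LBH589.

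The cyclin E genes had the log2 fold changes nearest to 0 among the 10 genes. CCNE1, a regulatory subunit of CDK2, was at 4.58, 3.16 and 4.15 FPKM in LBH589, against 6.42, 6.04 and 7.71 FPKM in DMSO. The groups did not overlap, and CCNE1 fell with a log2 fold change of -0.64 (SE 0.16, limma adjusted p = 0.0186). Without LBH589 replicate 2, its lowest library, the adjusted p was 0.0553, and taking the most abundant listed transcript alone gave 0.512. CCNE2, the second cyclin E, was at 7.198, 6.41 and 6.27 FPKM in LBH589, against 7.04, 8.25 and 8.92 FPKM in DMSO. LBH589 replicate 1 lay within the DMSO range, and the log2 fold change was -0.25 (SE 0.13, limma adjusted p = 0.16), which does not show that CCNE2 was unaffected. With library sums made equal, a scaling under which the all-gene median was 0.23 in place of 0.08, CCNE2 was at -0.09 (adjusted p = 0.581) and CCNE1 at -0.49 (adjusted p = 0.0497). Exons of CCNE2 overlap those of INTS8 on the opposite strand, and the sources used here do not say whether strand was kept. INTS8, a subunit of the Integrator complex, was at 44.2 ± 7.04 FPKM in LBH589 and 40.3 ± 3.03 FPKM in DMSO (SD, n = 3 each).

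Both helicase loading factors fell. CDC6, the ATPase that helps to load the helicase, was at 3.46, 1.73 and 2.496 FPKM in LBH589, against 14.6, 13.1 and 15.9 FPKM in DMSO. The groups lay apart, the lowest DMSO value being 3.78 times the highest LBH589 value, and CDC6 fell with a log2 fold change of -2.15 (SE 0.20, limma adjusted p = 3.99e-04). CDT1, which brings the MCM helicase to the origin, was at 0.242, 0.646 and 0.567 FPKM in LBH589, against 5.79, 3.85 and 2.605 FPKM in DMSO. All 3 LBH589 libraries were under 1 FPKM and all 3 DMSO libraries above 2 FPKM. CDT1 fell with a log2 fold change of -1.74 (SE 0.26, limma adjusted p = 0.00242), or -2.84 with 0.1 FPKM added. GMNN (geminin), the inhibitor that binds CDT1, was at 44.1, 37.3 and 33.6 FPKM in LBH589, against 66.4, 42.2 and 44.1 FPKM in DMSO, with overlapping groups (log2 fold change -0.38, SE 0.20, limma adjusted p = 0.172).

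Both subunits of the origin recognition complex among the 10 genes fell. ORC1, its largest subunit, was at 0.367, 0.356 and 0.683 FPKM in LBH589, against 5.06, 3.35 and 3.003 FPKM in DMSO. The groups lay apart, the lowest DMSO value being 4.397 times the highest LBH589 value, and ORC1 fell with a log2 fold change of -1.69 (SE 0.20, limma adjusted p = 9.45e-04). ORC6, its smallest subunit, was at 0.482, 1.03 and 0.476 FPKM in LBH589, against 3.34, 1.67 and 3.56 FPKM in DMSO. LBH589 replicate 2 and DMSO replicate 2 came closest, 1.63-fold apart, and ORC6 fell with a log2 fold change of -1.19 (SE 0.26, limma adjusted p = 0.0103). Of the core subunits in between, ORC3 was at 5.83 ± 0.525 FPKM in LBH589 and 8.75 ± 1.59 FPKM in DMSO (SD, n = 3 each, limma adjusted p = 0.0403). That call ended in 8 of the other settings tried, among them 5 of the 6 that leave out a library, with adjusted p up to 0.358. ORC4 rose to 13.5 ± 3.46 FPKM in LBH589, against 5.04 ± 2.12 FPKM in DMSO (limma adjusted p = 0.0149), a call that ended without LBH589 replicate 1 (adjusted p = 0.0513) or LBH589 replicate 3 (adjusted p = 0.055). ORC2 and ORC5 did not pass, at 12.1 ± 0.739 and 16.1 ± 0.392 FPKM in LBH589, against 9.68 ± 0.817 and 14.8 ± 1.57 FPKM in DMSO. ORC2 passed with library sums made equal (log2 fold change 0.46, adjusted p = 0.0111).

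CHAF1A, the large subunit of chromatin assembly factor 1, had the lowest log2 fold change of the 10 genes. It was at 1.69, 1.79 and 1.73 FPKM in LBH589, against 29.1, 25.1 and 19.8 FPKM in DMSO. The LBH589 libraries were nearly equal, and the lowest DMSO value was 11.03 times the highest LBH589 value. CHAF1A fell with a log2 fold change of -3.21 (SE 0.16, limma adjusted p = 4.29e-05), a value as low or lower in 0.469% of all genes tested. CHAF1B, its middle subunit, was at 3.15, 3.28 and 3.55 FPKM in LBH589, against 9.14, 7.61 and 8.18 FPKM in DMSO. CHAF1B fell with a log2 fold change of -1.10 (SE 0.12, limma adjusted p = 6.9e-04), and again no library of a group reached into the other. RBBP4, the small subunit, shared with several histone-modifying complexes, was at 31.2, 32.8 and 10.1 FPKM in LBH589, against 40.5, 24.9 and 54.2 FPKM in DMSO (limma adjusted p = 0.256), with wide spread in both groups. Exons of CHAF1A overlap UBXN6 on the opposite strand, and UBXN6 was at 6.09 ± 1.06 FPKM in LBH589 and 8.96 ± 4.44 FPKM in DMSO (SD, n = 3 each). Exons of CHAF1B overlap MORC3 on the same strand, and MORC3 was at 13.4 ± 3.49 FPKM in LBH589 and 10.5 ± 1.501 FPKM in DMSO.

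**Figure D2:**
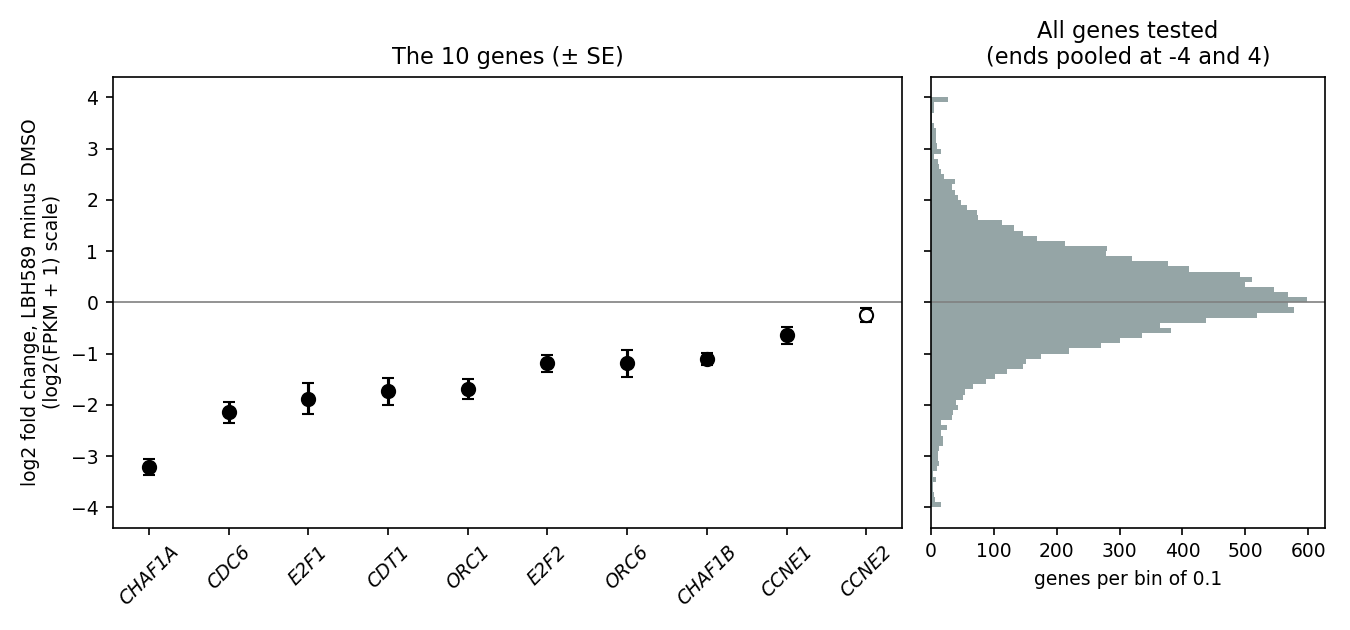
Log2 fold change of the 10 genes (left; bars are standard errors; filled points passed the test, the open point did not) beside the distribution for all genes tested (right), both on the log2(FPKM + 1) scale. CHAF1A is lowest at -3.21 and CCNE2, the open point, highest at -0.25.

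The order of the levels differed between the groups. In LBH589, CCNE2 was highest at 6.63 FPKM and lay above CCNE1 (3.96 FPKM) in every library, while CCNE1, CHAF1B, CDC6 and CHAF1A followed with each neighbouring pair overlapping. ORC6, CDT1, ORC1 and E2F1 came next at 0.663 to 0.425 FPKM. ORC6 (highest library 1.029 FPKM) lay apart from CHAF1A (lowest library 1.687 FPKM), while neighbours from ORC6 to E2F1 overlapped. E2F2 was lowest at 0.115 FPKM, apart from E2F1. In DMSO, CHAF1A was highest at 24.7 FPKM and CDC6 second at 14.5 FPKM, each apart from the next gene. From CHAF1B (8.31 FPKM) through CCNE2, CCNE1, E2F1, CDT1, ORC1 and ORC6 to E2F2 (1.58 FPKM), neighbours overlapped throughout. All 10 genes passed the filter on low values, but 4 of them (E2F1, E2F2, CDT1 and ORC1) had a mean below 0.5 FPKM in LBH589 and so were listed through their DMSO values.

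The DMSO libraries themselves were ordered alike in several of the genes. In E2F1, E2F2, CDT1, ORC1 and CHAF1A, 5 of the 10 genes, DMSO replicate 1 was highest and DMSO replicate 3 lowest. How many of all genes tested had this order was not counted. A principal component analysis of all genes tested also set these libraries in a row. Its second component, with 9.5% of the variance, placed DMSO replicates 1 to 3 at -35.9, 7.35 and 28.95. The coefficient of variation in DMSO was highest for E2F1 (45.6%) and CDT1 (39.4%) and lowest for CHAF1B (9.32%) and CDC6 (9.66%). DMSO replicate 1 also had the lowest mitochondrial share of the DMSO libraries, 35.8%, against 45.7 and 43.9% in DMSO replicates 2 and 3. The part of that share in the DMSO spread was not tested. With library sums made equal after mitochondrial genes were left out, 9 of the 10 genes still fell and 0 rose.

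Of the 10 genes, E2F1, E2F2, CDT1 and CHAF1B had 1 listed transcript each, so their sums are single values. The main transcript of CHAF1A, ENST00000301280.9_1, was at 1.69, 1.79 and 1.73 FPKM in LBH589, against 26.99, 21.1 and 19.3 FPKM in DMSO. Its other transcripts, ENST00000585854.1_1 and ENST00000587739.1_1, were listed at 0 in every LBH589 library, so the main transcript held 100% of the LBH589 level and 91% of the DMSO level. CDC6 was carried by ENST00000209728.8_1, at 1.998 ± 0.345 FPKM in LBH589 and 12.8 ± 1.14 FPKM in DMSO (SD, n = 3 each).

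In ORC1, ENST00000371566.1_1 was listed at 0 in every LBH589 library and at 3.001, 3.19 and 0 FPKM in DMSO. The other transcript, ENST00000371568.7_1, was at 0.367, 0.356 and 0.683 FPKM in LBH589, against 2.06, 0.159 and 3.003 FPKM in DMSO. Which of the pair carried the DMSO level differed between libraries, while the sum was at least 3.003 FPKM in each of them. When only the most abundant listed transcript was taken, the call of ORC1 ended (log2 fold change -0.73, adjusted p = 0.308).

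CCNE1 was split over 4 listed transcripts. ENST00000576532.1_1 was at 3.05, 0 and 0 FPKM in LBH589 and at 3.80, 0 and 0 FPKM in DMSO, so it was above 0 in replicate 1 of both groups alone. The longest, ENST00000262643.7_1, was at 2.04 ± 1.58 FPKM in LBH589 and 2.87 ± 0.882 FPKM in DMSO, while ENST00000575243.5_2 was at 0.394 ± 0.4199 FPKM in LBH589 and 2.07 ± 1.24 FPKM in DMSO. In CCNE2, ENST00000308108.8_1 held 77.9% of the LBH589 level, at 5.16 ± 1.26 FPKM, and 92.5% of the DMSO level, at 7.46 ± 1.04 FPKM. ORC6 was divided between ENST00000219097.6_2, at 0.509 ± 0.294 FPKM in LBH589 and 1.51 ± 0.179 FPKM in DMSO, and ENST00000566860.1_2, at 0.154 ± 0.134 FPKM in LBH589 and 1.35 ± 1.11 FPKM in DMSO.

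**Figure D3:**
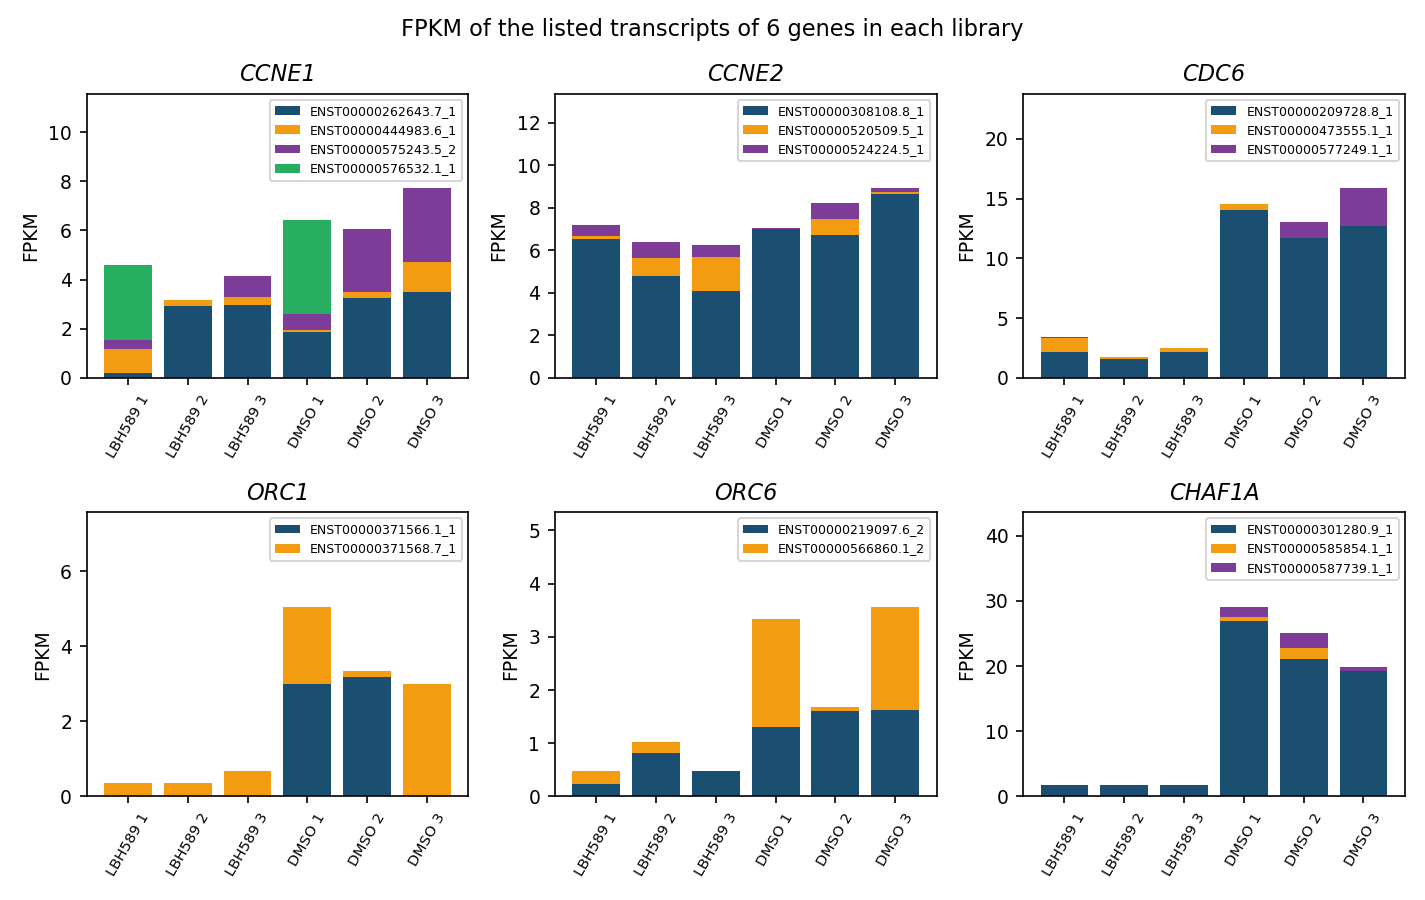
FPKM of each listed transcript, stacked to the gene sum, in the 3 LBH589 and 3 DMSO libraries for the 6 genes with more than 1 listed transcript. In ORC1 a different transcript carries DMSO replicates 2 and 3, and in CCNE1 the green transcript appears in replicate 1 of both groups alone.

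Genes of related roles were set against each other within each library, as log2 ratios of (FPKM + 1). With 3 against 3 libraries, no two-sided exact permutation test can go below p = 0.1, or below an adjusted p of 0.15 over the 6 ratios as they came out here. The ratio of CHAF1B to CHAF1A was 0.63, 0.62 and 0.73 in LBH589, against -1.57, -1.60 and -1.18 in DMSO. CHAF1A was thus the lower of the pair in every LBH589 library and the higher in every DMSO library, a difference of 2.11 (exact permutation p = 0.1, adjusted p = 0.15). The ratio of CDT1 to its inhibitor GMNN was -5.18, -4.54 and -4.47 in LBH589, against -3.31, -3.16 and -3.65 in DMSO, a difference of -1.36 without overlap (exact permutation p = 0.1, adjusted p = 0.15). With 0.1 FPKM added in place of 1, the difference of CDT1 to GMNN was -2.46, so its size depends on the added constant. CDT1, unlike GMNN, was listed through its DMSO values and could only be lower in LBH589, which favours this direction of the ratio.

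For CCNE2 to CCNE1 the ratio was 0.63 ± 0.18 in LBH589 and 0.23 ± 0.14 in DMSO (SD, n = 3 each, exact permutation p = 0.1, adjusted p = 0.15), a difference of 0.40 that was 0.04 with the most abundant transcripts. For E2F2 to E2F1 it was -0.35 ± 0.13 in LBH589 and -1.04 ± 0.38 in DMSO (exact permutation p = 0.1, adjusted p = 0.15). That difference of 0.69 was 0.10 with 0.1 FPKM added in place of 1, so it rests on the added constant. The ratios of CDT1 to CDC6 and of ORC6 to ORC1 overlapped between the groups (exact permutation p = 0.4 and 0.3, adjusted p = 0.4 and 0.36). Their differences of 0.41 and 0.50 turned to -0.34 with 0.1 FPKM added for CDT1 to CDC6, and to -0.02 with the most abundant transcripts for ORC6 to ORC1.

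**Figure D4:**
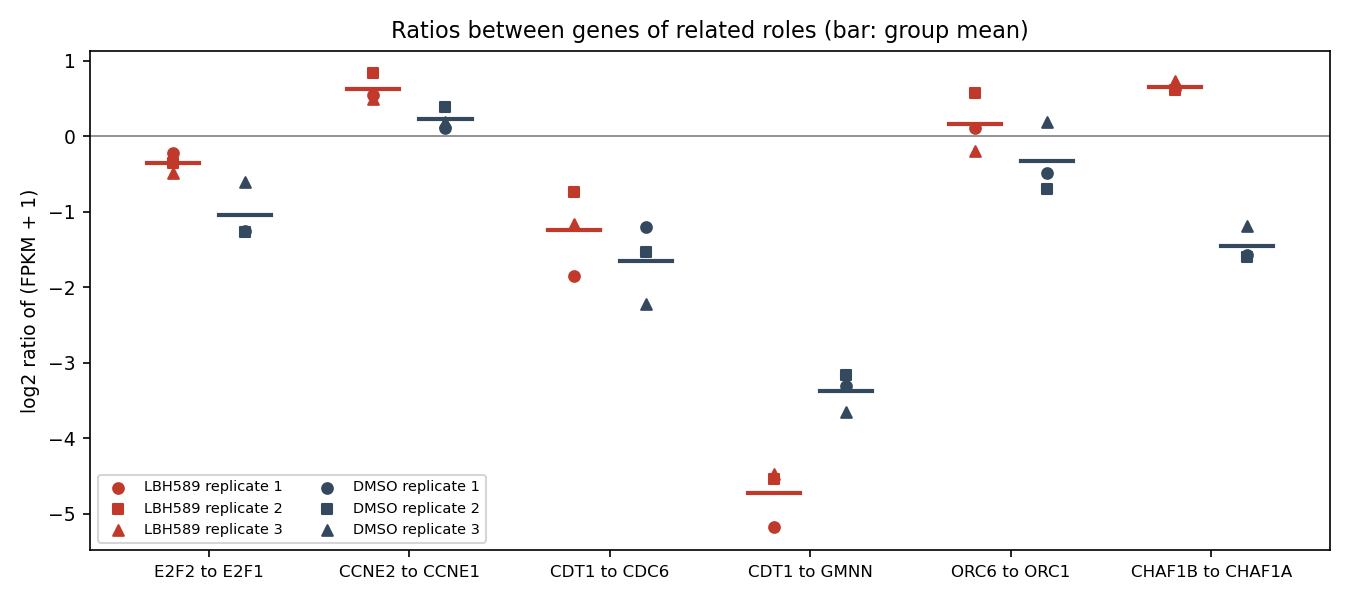
Log2 ratio of (FPKM + 1) between 6 pairs of genes in the 3 LBH589 and 3 DMSO libraries, with 1 point per library and a bar at each group mean. CHAF1B to CHAF1A is above 0 in LBH589 and below 0 in DMSO, and CDT1 to CDC6 and ORC6 to ORC1 overlap between the groups.

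In the rest of the E2F family, 4 of 8 genes fell and 0 rose (median log2 fold change -0.37, against 0.08 over all genes tested). The counts of this and each later list stand against 21.6% that fell and 27.2% that rose over all genes tested. E2F3, the other activator, was at 4.22 ± 1.81 FPKM in LBH589 and 30.2 ± 2.09 FPKM in DMSO (SD, n = 3 each; limma adjusted p = 6.73e-04). E2F7, an atypical repressor that is itself an E2F target, was at 1.18 ± 0.129 FPKM in LBH589 and 9.07 ± 1.62 FPKM in DMSO (adjusted p = 1.43e-04). TFDP1, the main dimerization partner of the E2F proteins, was at 13.9 ± 0.558 FPKM in LBH589 and 40.8 ± 4.15 FPKM in DMSO (adjusted p = 1.29e-04). E2F5, a repressor, fell to 16.5 ± 2.38 FPKM in LBH589, against 23.1 ± 1.55 FPKM in DMSO (adjusted p = 0.0264), but not with library sums made equal (0.131), nor with its most abundant transcript (0.849), nor without LBH589 replicate 1 or 2 or DMSO replicate 1 or 2 (0.0601 to 0.0786). E2F4, E2F6, E2F8 and TFDP2, named after their values were seen, did not pass.

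Of 10 pocket protein and MuvB genes, which encode the proteins that bind E2F factors and their partners, 3 fell and 3 rose (median -0.56). That is 30% in each direction, near the 21.6% that fell and 27.2% that rose over all genes tested. RB1, the retinoblastoma protein, rose and was at 37.4, 35.8 and 36.9 FPKM in LBH589, against 13.01, 16.4 and 17.4 FPKM in DMSO (log2 fold change 1.19, SE 0.13, limma adjusted p = 5.83e-04). RBL2 (p130), the pocket protein of resting cells, rose to 17.5 ± 1.38 FPKM in LBH589, against 9.54 ± 0.203 FPKM in DMSO (adjusted p = 0.00114). LIN37, a subunit of the MuvB core, rose to 4.03 ± 0.623 FPKM in LBH589, against 1.097 ± 0.491 FPKM in DMSO (adjusted p = 0.00345).

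RBL1 (p107), a pocket protein encoded by an E2F target gene, fell to 2.51 ± 0.318 FPKM in LBH589, against 4.26 ± 0.394 FPKM in DMSO (limma adjusted p = 0.0136; SD, n = 3 each). LIN9, another MuvB subunit, fell to 2.06 ± 0.168 FPKM in LBH589, against 8.59 ± 2.31 FPKM in DMSO (adjusted p = 0.00116). MYBL2 (B-Myb), which joins MuvB to activate late cell cycle genes, fell to 1.73 ± 0.409 FPKM in LBH589, against 37.7 ± 6.87 FPKM in DMSO (adjusted p = 4.1e-05).

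Among 11 genes of the cyclin E kinase and its regulators, 6 fell and 5 rose (median -0.62), against 21.6% and 27.2% of all genes tested. With the most abundant transcript 3 rose, against 2233 of all 11457 genes. CDK2, the catalytic partner of cyclin E, was at 9.22, 6.67 and 7.68 FPKM in LBH589, against 97.1, 73.3 and 89.1 FPKM in DMSO (log2 fold change -3.31, SE 0.16, limma adjusted p = 4.2e-05). The log2 fold change of CDK2 was further from 0 than those of CCNE1 (-0.64) and CCNE2 (-0.25), and that contrast was not tested. CDC25A, the phosphatase that activates CDK2, was at 0.688 ± 0.0499 FPKM in LBH589 and 9.11 ± 0.383 FPKM in DMSO (adjusted p = 3.5e-05). CKS1B, a small CDK-binding protein that works with SKP2, was at 1.47 ± 0.231 FPKM in LBH589 and 34.6 ± 11.7 FPKM in DMSO (adjusted p = 9.2e-05). CUL1, the scaffold of the ubiquitin ligase that degrades cyclin E, fell to 10.2 ± 0.903 FPKM in LBH589, against 35.05 ± 2.14 FPKM in DMSO (adjusted p = 8.8e-05).

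Inhibitors of the kinase were found on both sides. CDKN1B (p27) fell to 6.37 ± 0.784 FPKM in LBH589, against 12.3 ± 2.18 FPKM in DMSO (SD, n = 3 each; limma adjusted p = 0.00631), and is named after its values were seen. CDKN1A (p21) rose and was at 99.5 ± 18.3 FPKM in LBH589 and 11.6 ± 3.52 FPKM in DMSO (limma adjusted p = 2.16e-04), and CDKN1C (p57) at 55.3 ± 15.4 FPKM in LBH589 and 6.57 ± 0.588 FPKM in DMSO (adjusted p = 1.29e-04). FBXW7, the ligase subunit that recognises cyclin E, was at 15.8 ± 1.81 FPKM in LBH589 and 10.2 ± 1.18 FPKM in DMSO (adjusted p = 0.0127). Its most abundant transcript alone gave the opposite sign, a log2 fold change for FBXW7 of -0.41 (adjusted p = 0.232). USP28, a deubiquitinase that opposes FBXW7, was at 9.59 ± 1.61 FPKM in LBH589 and 3.81 ± 0.135 FPKM in DMSO (adjusted p = 0.00114; 0.132 with its most abundant transcript). SKP1, an adaptor of the same ligase family, was at 273 ± 109 FPKM in LBH589 and 112.9 ± 13.02 FPKM in DMSO (adjusted p = 0.0163; 0.0503 without DMSO replicate 3).

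Of 12 other origin licensing genes, 8 fell and 1, ORC4, rose (median -1.22), and with the most abundant transcript 5 fell. The MCM2 to MCM7 genes, which encode the helicase that ORC, CDC6 and CDT1 load, all 6 fell, with log2 fold changes of -2.46 to -1.59. MCM4 was at 9.6 ± 0.7197 FPKM in LBH589 and 57.5 ± 5.43 FPKM in DMSO (SD, n = 3 each; limma adjusted p = 3.5e-05), and MCM6 at 5.09 ± 0.398 FPKM in LBH589 and 17.4 ± 1.31 FPKM in DMSO (adjusted p = 1.24e-04). MCM5 was at 1.79 ± 0.218 FPKM in LBH589 and 10.5 ± 1.58 FPKM in DMSO (adjusted p = 1.45e-04), and MCM3 at 25.2 ± 2.81 FPKM in LBH589 and 79.2 ± 13.9 FPKM in DMSO (adjusted p = 4.27e-04). Taking the most abundant transcript alone, MCM4 (adjusted p = 0.366) and MCM5 (0.0588) did not pass.

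Of 13 tested genes that control CDT1 or fire licensed origins, 8 fell and 1, CUL4B, rose (median -1.12). MCM10, an initiation factor that joins the loaded helicase, was at 0.342, 0.429 and 0.334 FPKM in LBH589, against 10.5, 9.9 and 11.99 FPKM in DMSO (log2 fold change -3.10, SE 0.13, limma adjusted p = 2.9e-05). DTL, which directs a CUL4 ubiquitin ligase to CDT1 in S phase, was at 1.93 ± 0.166 FPKM in LBH589 and 13.2 ± 1.499 FPKM in DMSO (SD, n = 3 each; adjusted p = 7e-05). TICRR (treslin), an origin firing factor, was at 0.372 ± 0.0985 FPKM in LBH589 and 4.78 ± 0.461 FPKM in DMSO (adjusted p = 9.1e-05), and its partner TOPBP1 was at 11.2 ± 0.413 FPKM in LBH589 and 32.9 ± 4.18 FPKM in DMSO (adjusted p = 2.05e-04). CUL4B, a scaffold of that ligase family, rose to 33.3 ± 0.801 FPKM in LBH589, against 17.4 ± 2.95 FPKM in DMSO (adjusted p = 0.00247). Its paralogue CUL4A fell to 12.7 ± 3.35 FPKM in LBH589, against 33.4 ± 2.81 FPKM in DMSO (limma adjusted p = 0.00176; 0.473 with its most abundant transcript), and is named after its values were seen. GMNC, at 0.0496, 0 and 2.36 FPKM in LBH589 and 0, 0.205 and 0 FPKM in DMSO, was under the level tested. The 8 falls include MCM10, TICRR and DBF4B, with means of 0.368, 0.372 and 0.275 FPKM in LBH589. Being below 0.5 FPKM there, they were listed through DMSO and could only be lower in LBH589. DBF4B (0.958 FPKM in DMSO) is named after its values were seen.

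Of 14 other histone chaperone genes, 7 fell and 2 rose (median -0.67). With the most abundant transcript 4 fell and 1 rose, as the calls of ATRX, NASP and DAXX ended. HJURP, the chaperone of the centromeric histone, was at 0.504 ± 0.0607 FPKM in LBH589 and 10.4 ± 0.2096 FPKM in DMSO (SD, n = 3 each; limma adjusted p = 2.5e-05). ASF1B, which hands histones to chromatin assembly factor 1 in dividing cells, was at 0.671 ± 0.0721 FPKM in LBH589 and 5.03 ± 1.11 FPKM in DMSO (adjusted p = 3.23e-04). Its paralogue ASF1A was at 20.8 ± 1.04 FPKM in LBH589 and 15.8 ± 1.75 FPKM in DMSO (adjusted p = 0.0325), a call that ended in 5 of the 6 settings without a library (adjusted p up to 0.11; all but that without DMSO replicate 3). PCNA, the sliding clamp that recruits chromatin assembly factor 1, fell to 72.2 ± 4.79 FPKM in LBH589, against 148 ± 10.8 FPKM in DMSO (adjusted p = 4.55e-04). SSRP1, a subunit of the FACT complex, fell to 50.8 ± 1.35 FPKM in LBH589, against 93.6 ± 14.7 FPKM in DMSO (adjusted p = 0.0025). UBN1, a subunit of the replication-independent HIRA complex, was at 22.1 ± 2.92 FPKM in LBH589 and 14.9 ± 2.36 FPKM in DMSO (adjusted p = 0.029), a call that ended without LBH589 replicate 1 or 2 or DMSO replicate 1 or 2 (adjusted p up to 0.0953).

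**Figure D5:**
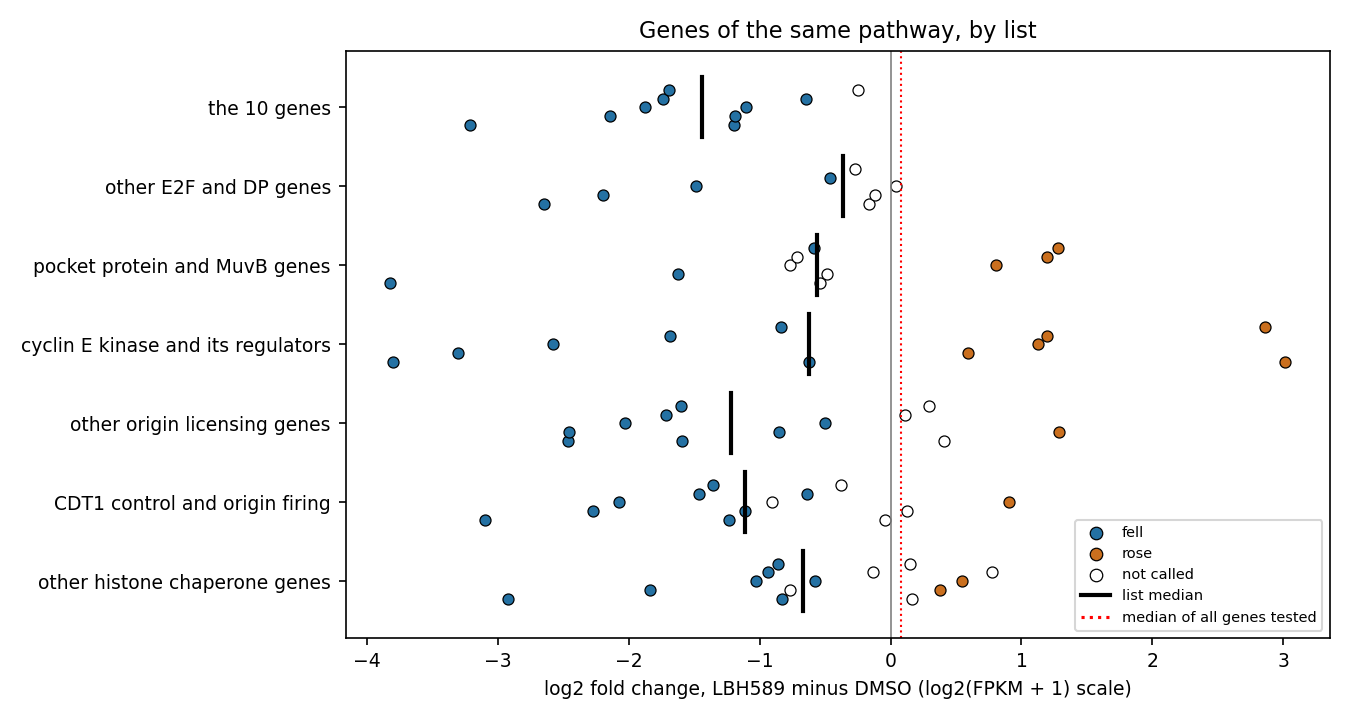
Log2 fold change on the log2(FPKM + 1) scale of the 10 genes and of the tested genes in 6 lists of the same pathway, 1 point per gene, filled where the gene fell or rose. Black bars are list medians, from -1.44 in the 10 genes to -0.37 in the other E2F and DP genes, and the dotted line is the median of all genes tested, 0.08.

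The profile of the 10 genes over the 6 libraries was set against those of 6861 other genes whose mean reached 5 FPKM. The highest Pearson correlations of log2(FPKM + 1) with the mean of the standardized 10 genes were those of NANOS1, CTPS2, AIFM1, C5orf15 and PTGFRN, at 0.9994 to 0.9996 over the 6 libraries. The libraries fall into 2 groups, so any gene that separates them evenly scores high, and the value is a description. CTPS2, which makes the nucleotide CTP, was at 2.7, 2.39 and 2.41 FPKM in LBH589, against 11.3, 9.77 and 10.5 FPKM in DMSO. PTGFRN, a membrane protein, was at 2.28 ± 0.214 FPKM in LBH589 and 14.8 ± 1.44 FPKM in DMSO (SD, n = 3 each). NANOS1, an RNA-binding protein, was at 5.03 ± 0.205 FPKM in LBH589 and 10.1 ± 0.556 FPKM in DMSO.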

How the data were processed

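RNA of 6 samples was sequenced from TruSeq libraries, per the labels' protocols. The deposited values are FPKM, 1 per transcript, per the file headers. The submitters' processing notes list Bowtie 0.12.2 and hg19 with no role stated; the tool behind the FPKM values, its annotation and its listing filter are items not given in the sources used here. All of the 30624 transcripts had a mean of at least 0.5 FPKM in a group. Identifiers were matched to GENCODE 29 (30504 named), and FPKM was summed per gene (12010 genes). The 11520 genes whose 6-library mean reached 0.5 FPKM entered limma 3.58.1 in R 4.3.3, with log2(FPKM + 1) as the value, treatment as the only term, and trended, robust moderation; p-values were adjusted by Benjamini-Hochberg and called below 0.05. Ratios used exact two-sided permutation tests (scipy 1.17.1). Depth is unknown, so no counting interval is given. The 10 genes, the 6 lists and the rules were chosen with earlier results of these data known. Besides the 10 genes, GMNN, CDK2, RB1 and RBBP4, the rule named up to 4 genes per list with the smallest adjusted p, every call against a list's majority, and the 5 genes of most similar profile; ORC2, ORC3 and ORC5 were added as subunits of the complex after values were seen. Alternatives were another added constant (0.1), no filter or a mean of at least 5 FPKM, 3 scalings, plain limma moderation, a call threshold of 0.01, a replicate block, the most abundant transcript and leaving out each library. Scaling without mitochondrial genes was chosen after seeing the data.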

Additional observations from a re-analysis of the deposited data

How the results depend on the processing

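The count of 9 falls among the 10 genes was the same with 0.1 FPKM added, without a filter, under equal medians, quantile normalization, equal sums with or without mitochondrial genes and plain limma moderation. It was 8 to 9 when a library was left out, 7 with the most abundant transcript and 7 at adjusted p below 0.01. Of all genes, 1753 of 11457 fell with the most abundant transcript and 1664 of 11520 at adjusted p below 0.01. At a mean of at least 5 FPKM, 5 of the 10 genes were left and 4 fell. Of all 6866 genes at that level, 1746 fell, and 1844 rose in place of 3132, because fewer genes were tested. Rises among the 10 genes were 0 in every setting. Over the lists, 36 falls and 12 rises became 28 to 38 falls and 9 to 14 rises. Among ratios and called genes of the lists, differences turned in direction for CDT1 to CDC6 (-0.34, 0.1 FPKM added) and, with the most abundant transcript, for ORC6 to ORC1 (-0.02371), DAXX (0.11) and FBXW7 (-0.41); the cause was not tested. Of the genes not called, E2F4, E2F6, HAT1, TFDP2 and DDB1 changed sign when a library was left out, HAT1 to -0.44 without DMSO replicate 3 (adjusted p = 0.0142). No pairing by replicate number was visible, as deviations of same-numbered libraries correlated at -0.104, 0.0215 and -0.035. No library correlated best with its own number. With 3 libraries per group and labels that do not say, this cannot exclude that same-numbered samples were handled together. With a replicate block, 9 of the 10 genes fell, and 2172 of all genes fell and 2617 rose in place of 2485 and 3132; under it the calls of RBL1 (adjusted p = 0.057), E2F5, ASF1A, UBN1, FBXW7 and DBF4 ended, those of MYBL1 and RECQL4 were gained, and 0 of the other histone chaperone genes rose. The lack of counts limits statements on genes near 0 FPKM.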

Other observations

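Across the other tested genes with a matched promoter window, the E2F letters TTGGCGC or TTCCCGC were in the 250 bases before a start of 18.9% of 1974 genes that fell, 13.5% of 2452 that rose and 16.1% of 4701 that were not called. TTTGAA, the CHR core, was in 15.1% of the genes that fell, 11.9% of those that rose and 10.9% of the rest. CCAAT was in 41.4% of the genes that fell, 45.7% of those that rose and 41.4% of the rest. A gene with several annotated starts was counted once, if any window held the letters. The median GC content of the windows was 64.8% in each of these classes. Most genes that fell, like CCNE1, CDC6, ORC6 and CHAF1B among those described here, do not hold these exact E2F letters in this window. Variants of the E2F site were not searched, and a window without a match can hold one. In CDC6, the letters ttggcgg differ from TTGGCGC in the last letter alone.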
